A study of Homo sapiens with 6 samples.

Results

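The BCL2 family decides whether a cell opens its mitochondrial outer membrane and dies by apoptosis. Prosurvival proteins (BCL2, BCL-XL, MCL1) hold the effectors BAX and BAK in check, and BH3-only proteins relay stress by occupying the groove of the prosurvival proteins or by activating the effectors directly. The mRNAs of MCL1 and PMAIP1 are known for their short lives. CNOT7 is a catalytic subunit of the CCR4-NOT complex, which shortens poly(A) tails and so starts the decay of many mRNAs.

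The members followed here were chosen by gene symbol from the gene count table: BCL2, BCL2L1, MCL1, BAX, BAK1, BCL2L11, BBC3, PMAIP1, BID and BIK. All 10 of 10 symbols were found among 58735 genes, each with 1 identifier, and all passed the filter on low counts that left 17574 tested genes. The samples were SW480 cells, an established colorectal cancer line, without further treatment: 3 control libraries (headed shNc in the table) and 3 libraries with stable, shRNA-driven CNOT7 knockdown. The knockdown was made to ask how CNOT7 bears on the response of colorectal cancer cells to radiation, but no library here is irradiated. The study's text names HCT116 for this experiment, whereas the deposited labels name SW480. Which shRNA the knockdown cells carry, whether they are a pool or 1 clone, and whether the libraries came from separate cultures was not stated, so p-values measure the spread between these libraries, which may be technical.

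The total counts lay between 23788451 and 29104872 per library. CNOT7 had 169, 191 and 176 CPM (counts scaled to library size, with TMM factors) in the control libraries and 43.4, 47.2 and 38.6 CPM in the knockdown libraries, so 24.1% was left (log2 fold change -2.05, SE or standard error 0.0734, adjusted p = 2.64e-12). Unless another tool is named, adjusted p is edgeR's quasi-likelihood p with Benjamini-Hochberg correction over all tested genes. All 7 epithelial markers were detected, with a summed level of 5554 to 5972 CPM in control and 5132 to 5683 CPM in knockdown libraries. Most of that sum is keratin mRNA, and 4 of the 7 were called, KRT8 (log2 fold change -0.15) and KRT19 (-0.18) lower, and CDH1 (0.505) and VIL1 (0.72) higher. The part of these markers in the results below was not tested. The 6 markers of leukocytes, fibroblasts and endothelium summed to 9.50 to 11.3 CPM in control and 11.7 to 12.4 CPM in knockdown libraries. Most of this sum was the fibroblast marker COL1A1, at 7.09 to 9.64 CPM per library, followed by the endothelial marker VWF, at 1.32 to 3.15 CPM. DCN, another fibroblast marker, was at 0 in every library. In such bulk samples, fewer expressing cells and less RNA per cell cannot be told apart.

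Of the 10 members, 3 were lower (BCL2L1, MCL1 and PMAIP1), 3 were higher (BCL2L11, BBC3 and BIK) and 4 were not called (BCL2, BAX, BAK1 and BID) at an adjusted p under 0.05. The background was 25.2% of all tested genes called, with 13.3% higher and 11.9% lower. Both abundant prosurvival mRNAs fell, neither effector mRNA was called, and the 5 BH3-only mRNAs split into 3 higher, 1 lower and 1 not called. The ranges of the 2 groups were separate in 5 members, and in 38.8% of all tested genes. The median log2 fold change over the members was -0.02, beside 0.004 over all tested genes.

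**Figure D1:**
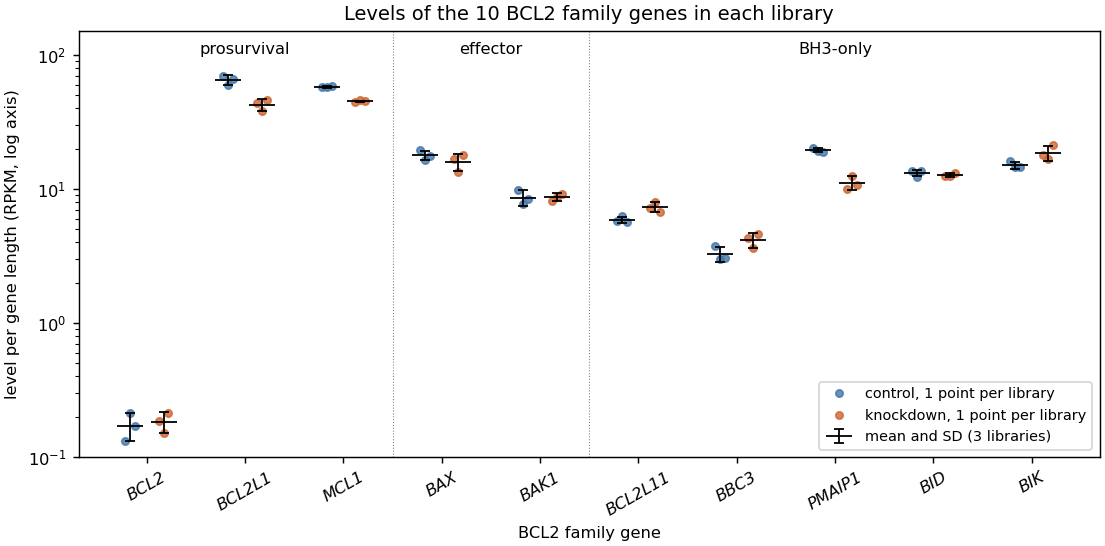
Level of each of the 10 genes in each library, as RPKM (CPM per kilobase of gene length) on a log axis, with blue points for control, orange points for CNOT7 knockdown, and the mean and SD of 3 libraries in black. BCL2L1, MCL1 and PMAIP1 sit lower with knockdown, BCL2L11 and BIK sit higher, and BCL2 lies far below every other member in both groups.

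To compare levels between genes, CPM was divided by the deposited gene length, which covers all annotated exons. The spread between libraries does not measure error from this length or from reads lost on overlapping exons. Close neighbours in the order below may therefore rank otherwise. In the control libraries BCL2L1 was the most abundant member, with 65.1 ± 5.18 RPKM (SD, n = 3), followed by MCL1 with 57.7 ± 0.892 RPKM (SD, n = 3). PMAIP1 (19.4 RPKM), BAX (17.8), BIK (15.0) and BID (13.2) formed the middle of the order. BAK1 (8.61 RPKM), BCL2L11 (5.87) and BBC3 (3.26) came below them, and BCL2 was last with 0.171 ± 0.0399 RPKM (SD, n = 3). Only PMAIP1 and BAX, among neighbours in this order, had control ranges that overlapped. BCL2 was thus a small part of the prosurvival mRNA in these cells, and BCL2L1 and MCL1 together made up 99.9% of the RPKM of the 3 prosurvival members in control and 99.8% in knockdown libraries. In the knockdown libraries MCL1 stood first with 45.0 ± 0.656 RPKM (SD, n = 3), BCL2L1 second with 42.4 ± 4.10 RPKM (SD, n = 3), and PMAIP1 had moved from rank 3 to rank 6. The knockdown ranges of MCL1 and BCL2L1 overlapped, as did those of BIK and BAX and of BID and PMAIP1, so these neighbours were not separated in the order.

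BCL2L1 (ENSG00000171552; chromosome 20 of GRCh38, 31664452 to 31723989, reverse strand) encodes BCL-XL and, by alternative splicing, the proapoptotic form BCL-XS, and gene counts add the forms together. It had 231, 197 and 219 CPM in control replicates 1, 2 and 3, and 145, 125 and 152 CPM in knockdown replicates 1, 2 and 3. The lowest control library lay well above the highest knockdown library. This was a log2 fold change of -0.62 (SE 0.0716, adjusted p = 6.81e-06), with 65.2% of the control level left. Of its exonic bases, 43.0% are also exons of the antisense gene ABALON, which had 36 to 98 counts per library against 3461 to 5941 for BCL2L1. The labels name a library kit, NEBNext Ultra, whose standard form does not mark the strand, and whether counting used strand was not stated. Reads of the pair may therefore not be told apart there, and ABALON was lower as well (log2 fold change -0.75, SE 0.219, adjusted p = 0.0181).

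MCL1 (ENSG00000143384; chromosome 1, 150574551 to 150579738, reverse strand), the prosurvival partner that PMAIP1's product NOXA binds and helps to degrade, had 251, 249.7 and 257 CPM in control libraries. It had 194, 199.6 and 197 CPM in knockdown libraries. The 2 groups were tight and far apart relative to their spread, with a log2 fold change of -0.36 (SE 0.0498, adjusted p = 4.24e-05) and 77.9% of the control level left.

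BCL2 (ENSG00000171791; chromosome 18, 63123346 to 63320128, reverse strand) was counted 40, 58 and 50 times in control and 61, 49 and 75 times in knockdown libraries. The groups overlapped, and the log2 fold change of 0.10 (SE 0.223, adjusted p = 0.785) had a 95% interval from -0.37 to 0.57, so a change of the size seen in MCL1 was not detectable at this depth. Its sign turned to -0.046 when the trend with abundance was removed. The summed RPKM of the 3 prosurvival members was 127, 117 and 125 in control libraries and 88.2, 83.7 and 90.9 in knockdown libraries, a mean of 71.2% of control that rests almost wholly on BCL2L1 and MCL1.

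The effector mRNAs, whose proteins form the pore in the outer membrane, were not called. BAX (ENSG00000087088; chromosome 19, 48954815 to 48961798) had 50.3, 42.7 and 45.3 CPM in control and 42.9, 34.4 and 46.1 CPM in knockdown libraries. The groups overlapped, with a log2 fold change of -0.16 (SE 0.0939, adjusted p = 0.224, 95% interval -0.36 to 0.03). BAK1 (ENSG00000030110; chromosome 6, 33572547 to 33580293, reverse strand) had 21.8, 16.9 and 18.4 CPM in control and 17.8, 19.2 and 20.4 CPM in knockdown libraries. Its log2 fold change was 0.01 (SE 0.0989, adjusted p = 0.977, 95% interval -0.20 to 0.21), and its sign was negative under DESeq2, under RLE scaling and with the trend with abundance removed. BAX was at its lowest in the library numbered 2 of each group.

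PMAIP1 (ENSG00000141682; chromosome 18, 59899948 to 59904306) encodes NOXA, a BH3-only protein that binds MCL1 above all, and it had the largest fall among the members. It had 44.9, 43.0 and 41.9 CPM in control libraries and 22.4, 28.1 and 24.0 CPM in knockdown libraries. No libraries of the 2 groups came near each other, and 57.4% of the control level was left (log2 fold change -0.80, SE 0.0832, adjusted p = 2.17e-06). Its RPKM relative to that of MCL1 was 0.350, 0.337 and 0.319 in control libraries and 0.226, 0.275 and 0.239 in knockdown libraries, so PMAIP1 was the lower of the pair by a wider margin after knockdown.

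BCL2L11 (ENSG00000153094; chromosome 2, 111119378 to 111168447) encodes BIM, which binds all the main prosurvival proteins and can activate BAX and BAK. It had 38.2, 41.6 and 37.4 CPM in control libraries and 47.9, 53.4 and 45.1 CPM in knockdown libraries. The groups did not overlap, and the rise was 0.32 on the log2 scale (SE 0.0760, adjusted p = 0.00479), or 124.9% of control. Of its exonic bases 10.9% are shared with MIR4435-2HG on the other strand, a gene with more counts (1463 to 1781 per library against 938 to 1474) that moved the opposite way (log2 fold change -0.35, SE 0.0619, adjusted p = 4.21e-04). The ratio of BCL2L11 to PMAIP1 RPKM went from 0.286, 0.325 and 0.299 in control libraries to 0.718, 0.639 and 0.631 in knockdown libraries.

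BBC3 (ENSG00000105327; chromosome 19, 47220822 to 47232766, reverse strand), which encodes the BH3-only protein PUMA, had 11.9, 9.46 and 9.78 CPM in control libraries. It had 13.6, 11.5 and 14.6 CPM in knockdown libraries, and the groups overlapped in 1 pair of libraries, knockdown replicate 2 lying under control replicate 1. The log2 fold change was 0.35 (SE 0.118, adjusted p = 0.0374). BIK (ENSG00000100290; chromosome 22, 43110748 to 43129712), a BH3-only protein of the endoplasmic reticulum, had 15.3, 13.8 and 13.8 CPM in control and 17.03, 15.8 and 20.3 CPM in knockdown libraries. Its groups did not overlap, with a log2 fold change of 0.31 (SE 0.102, adjusted p = 0.0347). Both calls lay close to the threshold. Without control replicate 2, control replicate 3, knockdown replicate 1 or knockdown replicate 3, the adjusted p of BBC3 was 0.106, 0.138, 0.138 and 0.144, and that of BIK was 0.0743, 0.124, 0.0787 and 0.192. The log2 fold changes in those fits were 0.29, 0.305, 0.32 and 0.27 for BBC3 and 0.28, 0.28, 0.325 and 0.195 for BIK. With the trend with abundance removed, the adjusted p was 0.0717 for BBC3 and 0.0521 for BIK, with log2 fold changes of 0.299 and 0.281.

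BID (ENSG00000015475; chromosome 22, 17734138 to 17774770, reverse strand), which caspase-8 cleaves to carry the death receptor signal to mitochondria, had 61.0, 54.8 and 60.1 CPM in control and 55.6, 55.7 and 58.8 CPM in knockdown libraries. The knockdown values lay inside the control range, and the log2 fold change was -0.05 (SE 0.0652, adjusted p = 0.637, 95% interval -0.19 to 0.09). Summed over the 5 BH3-only members, RPKM was 59.3, 55.3 and 55.5 in control and 51.9, 53.3 and 56.6 in knockdown libraries, so the summed level overlapped between groups while single members moved in both directions. The ratio of BAX to BCL2 RPKM, often quoted as a measure of apoptotic tone, ranged from 77.8 to 147 in control and from 83.3 to 90.1 in knockdown libraries. It overlapped between groups, and BCL2 had only 40 to 75 counts per library.

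**Figure D2:**
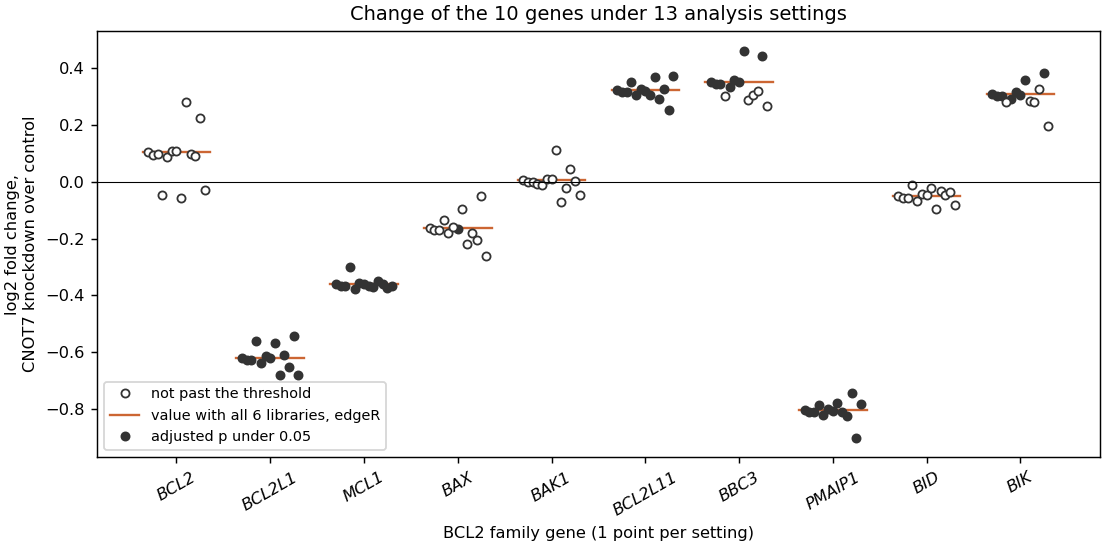
Log2 fold change of the 10 genes (vertical axis) under 13 settings, 1 point each: the main value, 6 other tools, scalings, filters or models, and 6 fits without 1 library. Filled points have an adjusted p under 0.05, and the orange line is the value with all libraries in edgeR. BCL2L1, MCL1, PMAIP1 and BCL2L11 are filled in all 13, BBC3 and BIK are open in 5, and BCL2 and BAK1 cross 0.

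The calls of BCL2L1, MCL1, PMAIP1 and BCL2L11 held in the 12 alternative settings that call at an adjusted p under 0.05 alone, as the plot of changes by setting shows. A further rule that also asked for an absolute log2 fold change of at least 1 called 0 of the 10 members. Over the 12 alternative settings, the log2 fold change went from -0.68 to -0.54 for BCL2L1 and from -0.38 to -0.30 for MCL1. It went from -0.90 to -0.74 for PMAIP1 and from 0.25 to 0.37 for BCL2L11. The largest adjusted p of these genes was 1.63e-04, 0.00107, 7.69e-05 and 0.0376 in the same order.

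CCR4-NOT is brought to mRNAs by proteins that read short motifs in the 3′ untranslated region, among them ZFP36 proteins, which bind AU-rich elements, and Pumilio proteins. The 3′ untranslated regions of the members, each from its principal GENCODE transcript, were therefore searched on the sense strand for TATTTAT, the core of an AU-rich element, and for TGTANATA, the Pumilio word. TATTTAT occurred in 4 of the 10 members: 3 times each in MCL1 and PMAIP1 and once each in BCL2L1 and BCL2. Those are the 3 members that fell and 1 that was not called. Of 13512 such regions of tested genes, 31.7% held TATTTAT and 26.2% held TGTANATA. Long regions hold more words, and among regions within 20% of the same length 53.4% held TATTTAT for MCL1 (2819 bases), 35.3% for PMAIP1 (1553 bases), 33.5% for BCL2L1 (1497 bases) and 72.2% for BCL2 (5279 bases). In the 3 members that rose, the searched regions are shorter and lack it. The like-length share was 22.0% for BCL2L11 (817 bases), 23.7% for BBC3 (975 bases) and 12.3% for BIK (407 bases), so most regions of those lengths lack it too. The annotated BCL2L11 gene runs on past the searched region, to 111168447 on chromosome 2. Sequence there was not searched, so words in longer forms of this mRNA would be missed. TGTANATA occurred in BCL2 (4 times) and once each in BCL2L1, MCL1, BCL2L11 and BBC3, so it was found in members that fell, members that rose and a member that was not called. Among regions of like length the share that held it was 59.7% for BCL2, 43.0% for MCL1, 27.9% for BCL2L1, 19.0% for BBC3 and 17.4% for BCL2L11. BAX, BAK1, BID and BIK held neither word. A match describes the letters and does not show that a protein binds there, and with 10 genes no test was made. The matches in members that were called are shown with 9 bases on each side, the motif in capitals, on the transcript strand from 5′ to 3′ and with GRCh38 coordinates, all in the last exon.
PMAIP1, TATTTAT site 1 (chr18:59903963-59903987, forward strand): gaataatttTATTTATtttgcctat
PMAIP1, TATTTAT site 2 (chr18:59903976-59904000, forward strand): tattttgccTATTTATaattaaagt
PMAIP1, TATTTAT site 3 (chr18:59904211-59904235, forward strand): accatctggTATTTATggtctaatt
MCL1, TATTTAT site 1 (chr1:150575809-150575833, reverse strand): ctctacagaTATTTATatcaattcc
MCL1, TATTTAT site 2 (chr1:150575194-150575218, reverse strand): ttacctatgTATTTATcgttcttga
MCL1, TATTTAT site 3 (chr1:150575166-150575190, reverse strand): taagccgctTATTTATatcatgtat
BCL2L1, TATTTAT (chr20:31664684-31664708, reverse strand): gcgtgtctgTATTTATgtgtgagga
BCL2L1, TGTANATA (chr20:31664750-31664775, reverse strand): gctctctgcTGTACATAtttgagact
MCL1, TGTANATA (chr1:150576666-150576691, reverse strand): tgtaaaaatTGTATATAtttttacag
BCL2L11, TGTANATA (chr2:111164878-111164903, forward strand): agtcccattTGTAAATAtttacgtac
BBC3, TGTANATA (chr19:47220906-47220931, reverse strand): atgcgctgcTGTAGATAccggaatga

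The remaining family genes were read from the same fit. Of 13 listed, 11 were tested, of which 3 were higher, 2 were lower and 6 were not called. BMF, a BH3-only gene tied to the cytoskeleton, rose from 9.03, 8.38 and 8.42 CPM to 15.6, 14.4 and 15.3 CPM, with a log2 fold change of 0.81 (SE 0.0976, adjusted p = 1.05e-05). HRK, a BH3-only gene best known from neurons, was scarce, with 6, 12 and 12 counts in control and 34, 42 and 30 counts in knockdown libraries (log2 fold change 1.60, SE 0.353, adjusted p = 0.00288). BAD, a BH3-only gene controlled by survival kinases, went from 12.3, 8.77 and 9.06 CPM to 5.61, 5.40 and 9.44 CPM (log2 fold change -0.56, SE 0.183, adjusted p = 0.0326). Its groups overlapped through knockdown replicate 3, and the adjusted p was 0.140 without control replicate 1, 0.154 without knockdown replicate 1, 0.0887 without knockdown replicate 2 and 0.184 in DESeq2. Of the exonic bases of BAD 23.7% are shared with GPR137 on the other strand, which had more counts (675 to 1175 per library) and was lower too (log2 fold change -0.57, adjusted p = 1.80e-04). With the members, 5 of the 8 BH3-only genes were thus higher (BCL2L11, BBC3, BIK, BMF and HRK), 2 were lower (PMAIP1 and BAD) and 1 was not called (BID), beside the background of 13.3% and 11.9%. Of these calls, BBC3, BIK and BAD were each lost without any one of several single libraries, as given above, and BCL2L11, BMF, HRK and PMAIP1 were kept without each library.

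The BCL2-like genes also split. BCL2L15 fell from 96.9, 107 and 97.0 CPM to 61.4, 67.0 and 58.3 CPM (log2 fold change -0.69, SE 0.0667, adjusted p = 9.24e-07). BCL2L14 had 5 to 8 counts in control and 15 to 22 counts in knockdown libraries (log2 fold change 1.31, SE 0.422, adjusted p = 0.0304). At these counts its adjusted p was 0.122 without control replicate 1, 0.105 without control replicate 3, 0.0847 without knockdown replicate 1 and 0.103 without knockdown replicate 2, and also above 0.05 in DESeq2 (0.0854) and with the trend with abundance removed (0.0744). BCL2L2, which encodes the prosurvival protein BCL-w, had a log2 fold change of 0.02 (adjusted p = 0.877), the effector-like BOK of -0.07 (0.616), BCL2L12 of -0.15 (0.119) and BCL2L13 of 0.08 (0.313). The mitochondrial receptors of the BH3-like kind, BNIP3 and BNIP3L, had 0.26 (0.384) and 0.03 (0.815). BCL2L12 shares 33.1% of its exonic bases with IRF3 on the other strand. IRF3 had more counts (2073 to 3280 per library against 1296 to 1654 for BCL2L12) and was not called (log2 fold change -0.08, adjusted p = 0.598). BCL2A1 had 0 or 1 count and BCL2L10 had 1 to 5 counts per library, too few for a test. The number of calls in this list was 3 in place of 5 without control replicate 1, knockdown replicate 1 or knockdown replicate 2.

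**Figure D3:**
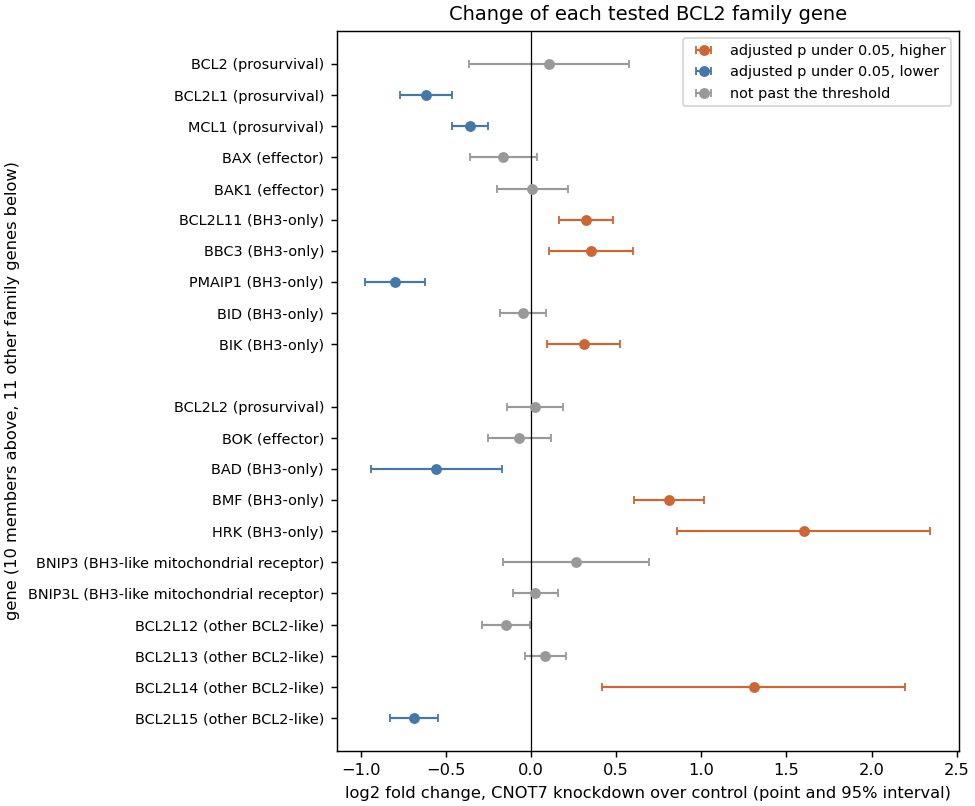
Log2 fold change of CNOT7 knockdown over control (horizontal axis) for the 10 members and the 11 other tested family genes, with 95% intervals and coloured by call. The intervals of HRK and BCL2L14, with 42 counts or fewer in any library, are the widest, and BMF, PMAIP1, BCL2L15 and BCL2L1 lie far from 0 with narrow intervals.

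Downstream of the pore, cytochrome c meets APAF1 and caspase-9, and inhibitor of apoptosis proteins restrain the caspases. Of 22 listed genes (23 identifiers, since DIABLO has a pair that share exons), 21 identifiers were tested, of which 4 were lower, 0 were higher and 17 were not called, a share of 19.0% beside 25.2% of all genes. DESeq2 called 5 in this list, all lower. With the trend with abundance removed 3 were called, 1 higher and 2 lower, and with a replicate term 11 were called, 2 higher and 9 lower. In every other setting with calls in this list, all were lower. The median log2 fold change was -0.11. BIRC3, which encodes the ubiquitin ligase cIAP2, fell most, from a mean of 117 to 63.8 CPM (log2 fold change -0.87, SE 0.0645, adjusted p = 3.50e-08). VDAC3, a channel of the outer membrane, followed with -0.26 (adjusted p = 0.00264), CASP2 with -0.21 (0.0205) and CYCS, the cytochrome c gene, with -0.16 (0.0405). CASP2 lost the call without control replicate 2 (0.0845), control replicate 3 (0.0601), knockdown replicate 1 (0.0560) or knockdown replicate 3 (0.0687), and CYCS without the same libraries (0.101, 0.123, 0.179 and 0.0658). Leaving out knockdown replicate 2 raised the number of calls to 7, and leaving out any of those 4 libraries lowered it to 2. APAF1 (0.03) and XIAP (-0.02) were not called.

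The death receptor arm joins the family through BID. Of 14 listed genes 13 were tested, of which 5 were lower, 1 was higher and 7 were not called (46.2% called and a median log2 fold change of -0.15, beside 25.2% called and 11.9% lower over all tested genes). The decoy receptor TNFRSF10D had a log2 fold change of -0.38 (adjusted p = 2.31e-04), the adaptor FADD of -0.36 (0.0173), the caspase-8 inhibitor CFLAR of -0.305 (0.00388), RIPK1 of -0.27 (0.00671) and the TRAIL receptor TNFRSF10B of -0.23 (0.00451). TNFSF10, which encodes TRAIL itself, was higher, with 0.42 (adjusted p = 0.00221). FADD lost the call without control replicate 1 (0.105) or knockdown replicate 2 (0.0534). Of its exonic bases 54.9% are shared with AP000879.1 on the other strand, which had 0 counts in every library. CASP8, the protease that cleaves BID, had a log2 fold change of -0.06 (adjusted p = 0.694). The lower genes include both an adaptor that passes the signal on, FADD, and an inhibitor of it, CFLAR.

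**Figure D4:**
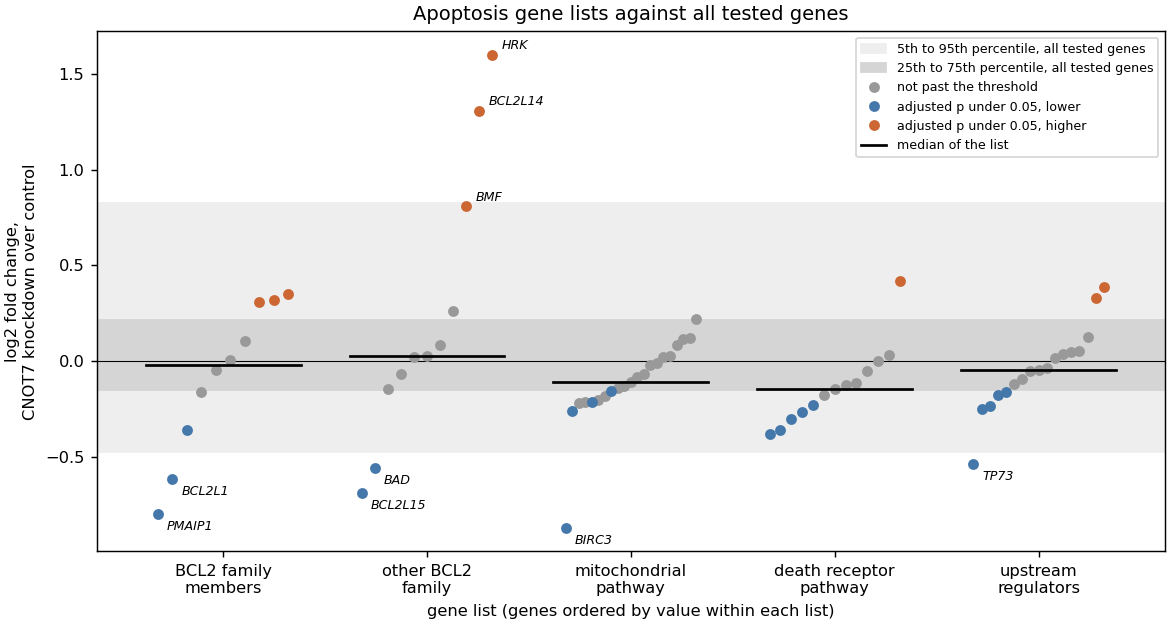
Log2 fold change (vertical axis) of each tested gene in 5 lists, ordered by value and coloured by call, with the list's median as a black line and the middle ranges of all 17574 tested genes as grey bands (5th to 95th percentile, -0.48 to 0.82). PMAIP1, BCL2L1, BAD, BCL2L15, BIRC3 and TP73 lie under the wide band and HRK and BCL2L14 above it, while most genes of the 3 pathway lists lie close to 0.

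Regulators that act on family genes or proteins were the last list, with 17 genes tested, of which 2 were higher, 5 were lower and 10 were not called (41.2% called beside 25.2% of all tested genes, with a median log2 fold change of -0.05). MYC rose by 0.39 on the log2 scale (adjusted p = 2.52e-05), and FOXO1, a transcription factor that can induce BCL2L11, by 0.33 (0.00847). TP73, a transcription factor that can induce apoptosis genes, had a log2 fold change of -0.54 (adjusted p = 0.00203), E2F1 of -0.25 (0.0105), the MCL1 kinase GSK3B of -0.23 (0.00417), the kinase PIM1 of -0.18 (0.0478) and HUWE1, a ubiquitin ligase of MCL1, of -0.16 (0.0152). FOXO3 had -0.04 (adjusted p = 0.739), ATF4 0.02 (0.834), USP9X, the deubiquitinase of MCL1, 0.04 (0.686) and FBXW7 0.045 (0.777). The call of PIM1 was lost without any one of the 6 libraries (adjusted p from 0.05001 without control replicate 2 to 0.181 without control replicate 1). That of HUWE1 was lost without control replicate 3 (0.0553) or knockdown replicate 3 (0.0513) and with the trend with abundance removed (0.177), and those of FOXO1 (0.0577) and E2F1 (0.0593) without control replicate 3, which left 3 calls in the list.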

How the data were processed

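RNA of 6 libraries was analysed, 3 control and 3 CNOT7 knockdown, grouped by their labels. The authors deposited raw counts per gene, without normalization. Their processing notes name CASAVA 1.8, fastp, HISAT2 2.0.5, featureCounts 1.5.0-p3, DESeq2 1.20.0 and GRCh38. Whether counting used strand, and how reads on overlapping genes were treated, are not given in the sources used here, and such reads may be lost or shared. All 58735 identifiers matched GENCODE release 29. No column of other samples was left unused (0).

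Genes were filtered with filterByExpr, scaled with TMM and tested in R 4.3.3 with edgeR 4.0.16 (glmQLFit and glmQLFTest), with Benjamini-Hochberg adjustment over all 17574 tested genes and a threshold of 0.05. Standard errors were obtained by dividing the size of the log2 fold change by the square root of F, and 95% intervals use the test's t quantile. RPKM is TMM-scaled CPM per kilobase of deposited gene length. Alternatives were DESeq2 1.42.0, RLE factors, cyclic loess offsets (limma 3.58.1), other filters, a replicate term, a minimum fold change and each library left out. Named genes were CNOT7, the members, the other family genes, and at most 8 called genes of each pathway list, and further pathway genes were named after their values were seen. The members and lists were chosen with earlier results of these data known. In counts simulated for this comparison over 17285 genes, edgeR recovered 75 of 93 genes changed by a factor of 2 and 66 of 96 changed by a factor of 1.5, and called 12 of 17096 unchanged genes. Depth gives precision through the counts behind each gene. Tables and plots used Python 3.11.15, pandas 2.3.3 and matplotlib 3.10.9.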

Additional observations from a re-analysis of the deposited data

How the results depend on the processing

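BCL2L1, MCL1, PMAIP1, BCL2L11, BMF, HRK, BCL2L15 and CNOT7 kept direction and call in every alternative that calls at an adjusted p under 0.05 alone (12 each, 11 for HRK, which the filter of 10 counts in every library removed along with BCL2L14). Over 39 named genes, 405 of 466 values kept both, 45 lost the call, 2 gained it and 14 changed sign, and the cause was not tested. All sign changes were in genes not called. BCL2 was at -0.046 with the trend with abundance removed and between -0.056 and 0.279 without 1 library. BAK1 was at -0.002 in DESeq2, -0.002 with RLE factors, -0.008 with the trend removed, -0.013 with no filter and between -0.073 and 0.112 without 1 library. Without 1 library, BCL2L2 ranged from -0.021 to 0.061, BOK from -0.161 to 0.001 and BNIP3L from -0.048 to 0.058.

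A minimum absolute log2 fold change of 1 left 638 genes called in place of 4424, of which 492 were higher and 146 lower, with 0 of the members, 2 other family genes (HRK and BCL2L14), and 0 in each of the mitochondrial, death receptor and upstream lists. DESeq2 and the filter of 10 counts in every library each left 3 calls among the other family genes in place of 5. Without 1 library, calls ranged from 3030 to 4542 over all genes, 4 to 6 in the members, 3 to 5 in the other family genes, 2 to 7 in the mitochondrial list, 5 to 6 in the death receptor list and 3 to 6 in the upstream list. With the trend with abundance removed, 4 members were called.

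Same-numbered libraries did not all deviate together: over 11979 genes, the deviations from the group mean correlated with r = 0.151, 0.524 and 0.0555 for numbers 1, 2 and 3, and control replicate 1 correlated most with knockdown replicate 3 (0.455). The numbers were therefore not taken as pairs. With the replicate block, 6508 genes, 7 members and 11 genes of the mitochondrial list were called, and BAX (log2 fold change -0.17, adjusted p = 0.0204) and BCL2L12 (-0.15, 0.0219) gained the call. TPM was 3.56 to 3.75 times RPKM for every gene of a library, so the order of members within a library is the same. The counts of BCL2, HRK and BCL2L14 limit what could be detected for them.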
